A study of Mus musculus with 2 samples.

Results

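The genes described here encode the proteins of the cytosolic ribosome. They were taken as the rows whose symbol begins with Rpl or Rps in the form used for these proteins, together with Rplp0, Rplp1, Rplp2 and Rpsa, and with at least 50 unique molecular identifiers (UMIs, each standing for 1 captured RNA molecule) over both libraries. Of the 27998 gene rows, 85 matched by symbol and 83 passed the floor, 32 of them for the small subunit and 51 for the large subunit. Rpl10l, with 6 UMIs, and Rpl39l, with 23 UMIs, fell below it. The members nearest above the floor were Rpl3l with 1022 UMIs and Rpl7l1 with 3559. The most abundant, Rps9, had 394418. Of the symbols, 6 belong to paralogues or copies of a standard subunit gene, namely Rpl3l, Rpl6l, Rpl7l1, Rpl22l1, Rpl36al and Rps27l. Rpl6l is annotated as a processed pseudogene.

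The cytosolic ribosome is built from ribosomal RNA and a near-fixed set of proteins, and its genes are among the most highly expressed of any growing cell. Maturing granulocytes are known to shut down ribosome production as they leave the cell cycle, fill their granules and condense their nucleus, while lymphocytes and monocytes keep a larger ribosomal protein transcript pool. Most ribosomal protein mRNAs begin with a C followed by a run of pyrimidines, the terminal oligopyrimidine (TOP) motif, through which growth signals control their translation.

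Cells sorted as CD11b+ Gr1+ from mouse spleen, a gate that collects neutrophils and monocytes, were profiled by droplet 3′ single-cell RNA sequencing. The control library was a pool of 5 wild-type mice of strain FVB/n. The other was a pool of 3 tumour-bearing PyMT mice, a strain that carries a mammary tumour-forming viral transgene and is labelled PYMT, with no promoter, background strain, age or tumour stage named. Each condition was therefore 1 library, the mice within a pool cannot be separated, and no value below has a replicate or a test. Intervals are exact 95% intervals and cover counting error only. Depth was 42542700 UMIs over 5491 wild-type cells (median 5668 per cell) and 73435307 UMIs over 9155 PyMT cells (median 7063). The libraries shared 72 cell barcodes.

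Cells were placed in classes by genes outside the ribosomal set. Progenitor-like cells had at least 0.1% of their UMIs on the primary granule genes Mpo, Elane, Prtn3 and Ctsg (46 wild-type and 51 PyMT cells). Neutrophil-like cells had at least 10% on S100a8 and S100a9 and fewer than 2 UMIs of the B cell receptor genes Cd79a and Cd79b. They were divided by the secondary granule gene Camp, which is high in immature and low in mature neutrophils: Camp-high from 4% of UMIs (3420 and 1610 cells), Camp-mid from 1% to 4% (467 and 1800), and Camp-low under 1% (55 and 2055). Monocyte-like cells had under 5% on S100a8 and S100a9 and at least 2 UMIs of Csf1r and Ccr2 (599 and 1580 cells). B-like cells had under 5% and at least 3 UMIs of Cd79a and Cd79b (304 and 1081 cells). These classes are ranges on a scale: 294 wild-type and 905 PyMT neutrophil-like cells lay between 3.5% and 4.5% Camp. In each library 71 cells met both the monocyte and the B cell rule and were counted as monocyte-like. The neutrophil marker list gave a summed level between 12657 and 19724 CPM (the UMIs of a gene per 1000000 UMIs of the class) in the monocyte-like and B-like sums, with all 10 markers detected, and between 320111 and 501126 CPM in the Camp-high and Camp-mid sums. This list includes S100a8, S100a9 and Camp, which define the classes, so the contrast follows in part from the rule. In wild-type Camp-high cells these genes were at 193629, 127894 and 71031 CPM. All 83 members had at least 1 UMI in each of the 12 sums of library and class.

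The ribosomal protein genes took a share of the transcriptome that differed several-fold between the cell classes. In the wild-type library the 83 genes made up 39.2% of the UMIs of B-like cells, 25.3% of those of monocyte-like cells, 15.9% of those of progenitor-like cells and 5.12% of those of Camp-high neutrophils. In the PyMT library the shares were 35.6%, 24.2%, 18.2% and 4.21% in the same order. The order of these 4 classes was the same in both libraries. In Camp-mid neutrophils the summed share itself differed between the libraries, at 10.6% and 4.48%. The smallest median over single cells was in Camp-low neutrophils, at 2.74% in wild type and 2.87% in PyMT.

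**Figure D1:**
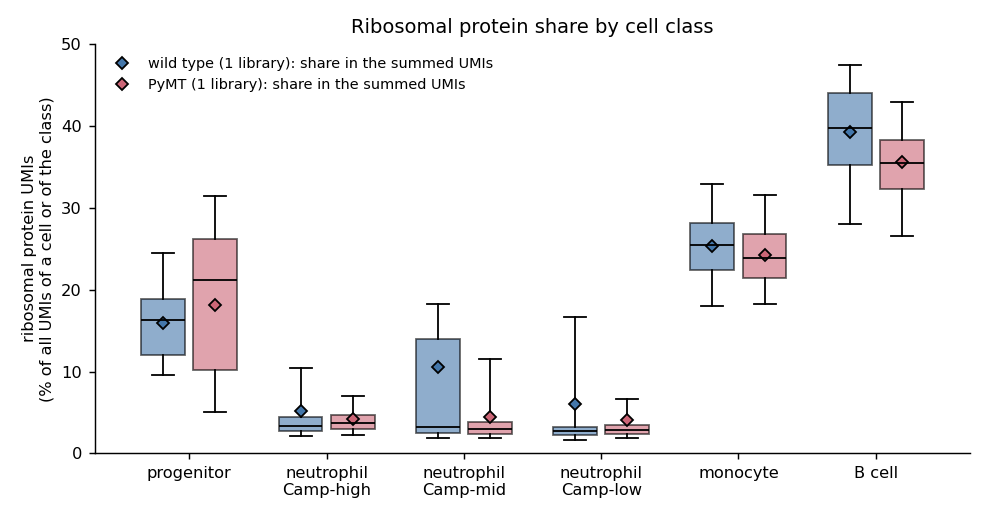
Share of UMIs on the 83 ribosomal protein genes (y axis, %) in each class (x axis) of the wild-type (blue) and PyMT (red) library, 1 library each; boxes give the median and quartiles over cells, whiskers the 5th and 95th percentile, and diamonds the share in the summed UMIs of the class. B-like cells are highest in both libraries (39.2% and 35.6% of summed UMIs), and the wild-type Camp-mid diamond (10.6%) stands far above its median cell (3.20%).

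Against Camp-high neutrophils, every one of the 83 members was at least 1.5-fold higher in monocyte-like cells of both libraries. In the wild type 61.5% of the 9080 genes with at least 50 UMIs were that much higher and in PyMT 74.4% of 9293. The 7 genes of the class rule held 39.3% and 41.1% of the Camp-high UMIs. With them left out of the totals, a count made after seeing the data, 81 of 83 members were that much higher in each library, against 35.4% and 51.2% of all genes. The summed share was 4.94-fold higher in the wild type and 5.75-fold higher in PyMT, and the median member differed by 2.40 and 2.63 on the log2 scale. With the rule genes left out of the total, the log2 ratio of the summed share was 1.60 and 1.79. Progenitor-like cells exceeded Camp-high neutrophils by at least 1.5-fold in 82 of 83 members in both libraries, where 45.4% and 56.7% of all genes did so. The exception was Rpl3l, a paralogue of Rpl3 known from muscle, whose log2 ratio was -0.77 (-3.07 to 0.81) in the wild type, from 3 progenitor UMIs, and -0.46 (-2.11 to 0.80) in PyMT, so its direction is not set by these counts. Of all genes 8.5% and 9.85% were lower by that much.

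B-like cells exceeded monocyte-like cells by 0.63 on the log2 scale in the wild type and 0.55 in PyMT. The margin was uneven over members. At least 1.5-fold higher in B-like cells were 41 of 82 members in the wild type, against 17.1% of all genes, and 29 of 83 in PyMT, against 26.7%. At least 1.5-fold lower were 1 and 4, against 32.4% and 28.4%. Rps27, a zinc-binding small subunit protein, was at 5389 CPM in wild-type monocyte-like and 12703 CPM in wild-type B-like cells. In PyMT it was at 3662 and 10379 CPM. Rps27 was the most abundant member in B-like cells of both libraries, at 3.24% and 2.92% of member UMIs. Rplp1, a protein of the acidic stalk that recruits translation factors, was at 2815 CPM in monocyte-like and 6942 CPM in B-like cells of the wild type, and at 2919 and 6045 CPM in PyMT. Rpl36a differed by 1.28 and 1.15 on the log2 scale. Rpl12, chosen after its values were seen, had the ratios 1.68 in the wild type and 1.64 in PyMT. Its locus overlaps Lrsam1 on the other strand. Rpl10, a large subunit protein at the peptidyl transferase centre, went the other way, at 5910 against 4468 CPM in the wild type and 6143 against 3838 CPM in PyMT. In PyMT B-like cells, erythroid markers summed to 2877 CPM, against 9.18 CPM in the wild type, and their part in the shares of the B-like class was not tested.

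The question the design raises is how the genes compare between tumour-bearing and control spleens within a class. In monocyte-like cells the share was nearly the same: 25.3% of wild-type and 24.2% of PyMT UMIs. The log2 ratio was -0.06. Of 83 members, 0 were 1.5-fold higher and 0 were 1.5-fold lower, where 7.71% and 9.0% of all genes were. In B-like cells the log2 ratio was -0.14 and again 0 of 82 members passed 1.5-fold in either direction, against 12.9% of all genes higher and 4.19% lower. In progenitor-like cells the ratio was 0.19 (0.18 to 0.20). There 2 of 82 members were 1.5-fold higher, against 16.1% of all genes, and 0 lower, against 7.98%. All these counts lie below the share of all genes that passed the same fold. The progenitor-like sums rest on few cells, and the ratio was -0.25 when cells with a UMI of Cd79a, Cd79b, Cd3e, Csf1r or Ccr2 were left out, which kept 14 cells in each library. The class also differed in makeup between the libraries: the neutrophil markers summed to 279635 CPM in the wild type and 216490 CPM in PyMT, the progenitor markers to 5961 and 9954 CPM, and the monocyte markers to 1780 and 2539 CPM. The progenitor list includes Mpo, Elane, Prtn3 and Ctsg, which define the class. The part of these differences in makeup in the ratio was not tested.

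The 3 neutrophil classes had lower shares in the PyMT sums. Camp-high neutrophils were at 5.12% in the control and 4.21% in the tumour-bearing pool, so the log2 ratio was -0.28. Of 83 members, 0 were 1.5-fold higher and 7 were 1.5-fold lower, against 3.36% and 39.8% of all genes. The median member differed by -0.27 and the median of all genes by -0.43, so the members lay above the typical gene. Camp-mid neutrophils were at 10.6% and 4.48%, a log2 ratio of -1.24, with 79 of 83 members at least 1.5-fold lower and 0 higher, against 50.2% and 5.16% of all genes. Camp-low neutrophils were at 5.99% and 4.11%, a log2 ratio of -0.54, with 47 of 83 members lower and 0 higher, against 32.1% and 19.4% of all genes. Scaled by trimmed mean of M-values, which added 0.42 to every gene's log2 ratio in Camp-high neutrophils, that ratio became 0.14, a change of direction.

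A minority of cells held much of the ribosomal protein UMIs of these classes in the wild type. Cells of the neutrophil classes with 2 or more UMIs of the monocyte genes Csf1r and Ccr2 were 147 of 467 in the wild-type Camp-mid class. They held 54.3% of its UMIs and 80.3% of its ribosomal protein UMIs, had a ribosomal protein share of 15.6% and a median of 11003 UMIs. The 315 cells with neither those UMIs nor 2 cycling UMIs had a share of 4.39% and a median of 3988 UMIs. In the wild-type Camp-high class 224 such cells of 3420 had a share of 11.2% and held 33.8% of the ribosomal protein UMIs. In the wild-type Camp-low class they were 6 of 55 cells and held 66.9%. In PyMT they were 34, 136 and 129 cells in the order Camp-high, Camp-mid and Camp-low, with shares of 6.39%, 11.9% and 12.4%. In each of the 3 classes and both libraries their median UMI count was above that of the cells with neither. The 7 monocyte markers, all detected in both Camp-mid sums, summed to 2339 CPM in the wild type and 1802 CPM in PyMT. Of these Ly6c2, which immature neutrophils also express, was at 1349 and 1614 CPM, and the other 6 markers summed to 990 and 188 CPM. The part of doublets was not tested.

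With those cells left out, a choice made after seeing the data, the shares were 4.01% in the wild type and 4.15% in PyMT for Camp-high, 4.56% and 3.39% for Camp-mid, and 2.59% and 3.14% for Camp-low neutrophils. The log2 ratios were then 0.05, -0.43 and 0.28. Leaving out every neutrophil-like cell with any UMI of Cd79a, Cd79b, Cd3e, Csf1r or Ccr2 gave 3.81% and 4.13%, 3.27% and 3.22%, and 2.61% and 2.92%, with log2 ratios of 0.12, -0.02 and 0.16. Of the 83 members, those at least 1.5-fold lower in PyMT were then 1, 24 and 0 without the cells with Csf1r and Ccr2 UMIs, in place of 7, 79 and 47, and those at least 1.5-fold higher were 3, 1 and 31. Of all genes 5.04%, 12.4% and 21.4% were then higher. Lower were 29.7% in Camp-high, 28.7% in Camp-mid and 1883 of 5702 in Camp-low cells. The 24 lower members of Camp-mid cells were thus close to the share of all genes. The medians over single cells were 3.37% and 3.72% in Camp-high, 3.20% and 2.98% in Camp-mid and 2.74% and 2.87% in Camp-low neutrophils. Under both exclusions the PyMT share was therefore above the wild-type share in Camp-high and Camp-low cells, and below it in Camp-mid cells, with log2 ratios of -0.43 or -0.02.

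**Figure D2:**
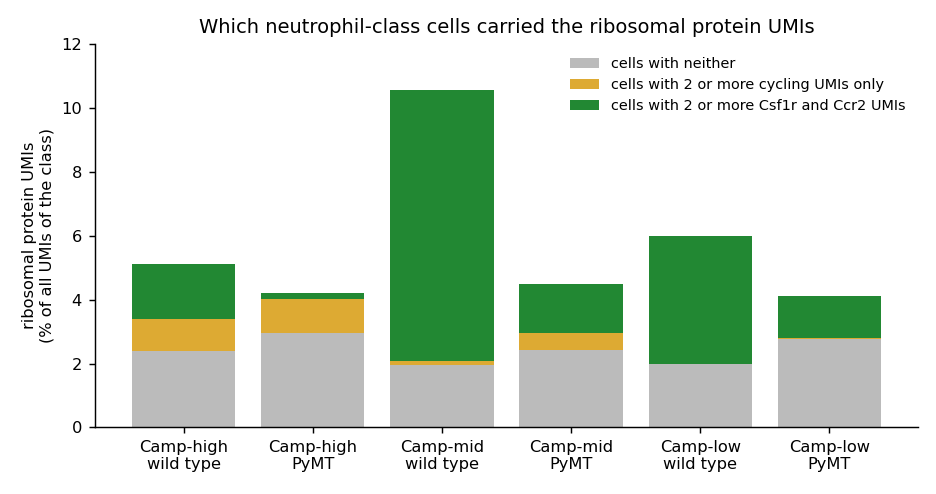
Ribosomal protein UMIs as a share of all UMIs of each neutrophil class (y axis, %), by Camp class and library (x axis, 1 library each), divided by whether the cells had 2 or more Csf1r and Ccr2 UMIs (green), 2 or more UMIs of the cycling markers only (yellow) or neither (grey). The green part makes up 80.3% of the wild-type Camp-mid bar and 34.1% of the PyMT one.

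Across neutrophil maturation within a library, the summed share was 0.23 higher on the log2 scale in Camp-low than in Camp-high cells of the wild type, and -0.03 in PyMT. At least 1.5-fold higher were 6 of 83 members in the wild type and 4 in PyMT, against 41.5% and 26.9% of all genes, and lower were 0 and 4, against 17.7% and 20.3%. In Camp-mid against Camp-high cells 79 members were higher in the wild type and 1 in PyMT, against 29.3% and 11.0% of all genes, and 0 were lower in both, against 7.29% and 3.32%. The median wild-type cell did not follow that count, at 3.37% in Camp-high and 3.20% in Camp-mid, and the summed shares without cells carrying other classes' markers were 3.81% and 3.27%. Over single cells the median went from 3.37% to 2.74% in the wild type and from 3.72% to 2.87% in PyMT, so the medians were lower in Camp-low cells in both libraries. With cells carrying other classes' markers left out, the log2 ratios of the sums were -0.55 and -0.50. Counted per cell, the mean number of ribosomal protein UMIs in the wild type was 393 in Camp-high and 236 in Camp-low cells. In PyMT it was 504 and 200. The median numbers were 192 and 89 in the wild type and 407 and 120 in PyMT. Camp-low cells of PyMT were thus below those of the wild type by the mean and above them by the median. The median total per cell in PyMT was 11522 UMIs in Camp-high and 4059 in Camp-low cells. Fewer transcripts per cell and a smaller captured fraction cannot be told apart here.

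Rps9 took the largest share of the ribosomal set in all 3 PyMT neutrophil classes and in PyMT monocyte-like cells. This small subunit protein helps keep decoding accurate, and its gene lies at chr7:3703993-3706897 on the plus strand of GRCm38. It took 3.75% of member UMIs in Camp-high, 3.28% in Camp-mid and 4.54% in Camp-low cells of the wild type, and 5.19%, 5.82% and 8.64% in PyMT. In monocyte-like cells it took 2.61% and 2.72%, and in B-like cells 1.64% and 1.65%. Its share of member UMIs was thus larger in every neutrophil class than in monocyte-like or B-like cells. In CPM, Rps9 was at 1920 in Camp-high and 2720 in Camp-low cells of the wild type and at 2187 and 3554 in PyMT. The log2 ratio of Camp-low over Camp-high was 0.50 (0.38 to 0.62) and 0.70 (0.68 to 0.72). In the wild-type Camp-low class, 6 of 55 cells had 2 or more Csf1r and Ccr2 UMIs and held 66.9% of member UMIs. The Camp-low over Camp-high ratios of single members, here and below, include such cells, and values without them are not given. The nearest counted gene past its 3′ end is Pirb, on the opposite strand, 4512 bases away.

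With Rps9, Rpl37 and Rpl3l had the highest mean ratios of Camp-low over Camp-high among the members. Rpl37, a zinc-binding large subunit protein, was at 919 and 1383 CPM in the wild type and at 625 and 1011 CPM in PyMT. Rpl3l was at 4.99 and 18.4 CPM in the wild type, the latter from 4 UMIs, and at 6.70 and 19.9 CPM in PyMT, from 129 and 199 UMIs. Its 3′ end lies 499 bases from Msrb1 on the same strand, and whether reads of that gene enter the Rpl3l count was not tested. The lowest ratios were those of Rpsa, Rpl29 and Rps20. Rpsa, the small subunit protein also known as the laminin receptor precursor, was at 429 and 387 CPM in the wild type and at 559 and 309 CPM in PyMT. Rps20 was at 377 and 318 CPM in the wild type and at 377 and 247 CPM in PyMT. The wild-type Camp-low values rest on 84 UMIs for Rpsa, 8 for Rpl29 and 69 for Rps20. The set was also more uneven in these cells: the 10 most abundant members held 33.1% of member UMIs in PyMT Camp-low cells, 26.8% in PyMT Camp-high and 22.8% in PyMT monocyte-like cells.

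The subunits kept close proportions. The small subunit genes held between 44.8% of member UMIs, in PyMT monocyte-like cells, and 50.8%, in PyMT Camp-low neutrophils. Over the 83 genes the log2 CPM of the PyMT and wild-type sums correlated with Pearson's r of 0.994 in monocyte-like cells, 0.996 in B-like cells and 0.992 in progenitor-like cells. Between PyMT Camp-high neutrophils and PyMT B-like cells r was 0.874. These are descriptions across genes that share libraries and depth.

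Within the set, some members stood to the same side of the member median in the PyMT over wild-type ratio of every class. The 6 class ratios share the same 2 libraries and are not independent of each other, so a difference between the libraries in handling would appear in all of them. Above the median in all 6 classes were 9 members: Rpl29, Rplp0, Rpl4, Rpsa, Rpl14, Rps19, Rpl6, Rps6 and Rpl19. Below it in all 6 were 11: Rps28, Rpl37a, Rpl38, Rpl35a, Rpl36, Rps21, Rpl30, Rplp2, Rpl22, Rpl34 and Rps15. The side was nominal for some, since the smallest departure was 0.00066 for Rpl14 and 0.00664 for Rps6. These lists use all cells of each class. Over the 76 combinations of class and processing setting, only Rpl29, Rplp0, Rpl37a and Rplp2 among them never lay on the other side. Rps15 did so in 6, Rpl14 in 5 and Rps6 in 4. Rps28 did so in 1, in Camp-mid neutrophils with cells carrying another class's marker left out. How many of all genes keep to the same side of their median in all 6 classes was not tested.

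Rpl3l passed the floor of 50 UMIs in only 4 classes and lay a median of 0.72 above the member median there. Among members that passed it in all 6, Rpl29 stood highest, with a median departure of 0.47. This small basic protein of the large subunit surface was at 189 CPM in wild-type and 249 CPM in PyMT monocyte-like cells, a log2 ratio of 0.40 (0.28 to 0.52). In B-like cells it was at 224 and 287 CPM, in progenitor-like cells at 149 and 220 CPM, and in Camp-high neutrophils at 50.4 and 57.2 CPM. It was lower in PyMT only in Camp-mid neutrophils, at 84.3 and 56.8 CPM. Its Camp-low ratio rests on 8 wild-type UMIs.

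Rplp0, the stalk base protein that anchors Rplp1 and Rplp2, followed with a median departure of 0.42. It was at 2951 and 3708 CPM in monocyte-like cells, at 1802 and 2793 CPM in progenitor-like cells and at 477 and 554 CPM in Camp-high neutrophils. In B-like cells it was at 3781 and 3848 CPM, a ratio of 0.03 (-0.02 to 0.07). Of its partners, Rplp2 lay below the member median in all 6 classes, but Rplp1 lay above it in 5. Rplp1 was at 2272 CPM in wild-type and 2835 CPM in PyMT progenitor-like cells, and at 425 and 455 CPM in Camp-high neutrophils. Both partners had lower ratios than Rplp0 in monocyte-like cells. The log2 ratio of Rplp1 in monocyte-like cells was 0.05 (0.02 to 0.08) and that of Rplp2 was -0.17 (-0.19 to -0.14), against 0.33 (0.30 to 0.36) for Rplp0. Rps2, at the mRNA entry side of the small subunit, had the highest ratio of the members tested in progenitor-like cells, 0.65, at 1741 and 2738 CPM. The ratio turned to -0.024 when cells with another class's marker were left out. It was at 1926 and 2322 CPM in monocyte-like cells. Its locus overlaps Snhg9 on the other strand. Rpsa had a ratio of 0.38 (0.34 to 0.42) in Camp-high neutrophils.

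Several members at the other end have short transcripts, among them Rps27 (345 bases), Rps28 (387 bases) and Rps29 (390 bases). Rps27, at chr3:90212522-90213651 on the minus strand, was at 5389 CPM in wild-type and 3662 CPM in PyMT monocyte-like cells. It was at 1271 and 784 CPM in Camp-high neutrophils, at 2449 and 1921 CPM in progenitor-like cells and at 12703 and 10379 CPM in B-like cells. Rps27 was thus lower in PyMT in each of these 4 classes, with log2 ratios of -0.56, -0.70, -0.35 and -0.29. Rps28, a small subunit protein near the mRNA exit, was at 2875 and 2364 CPM in monocyte-like and 3649 and 2756 CPM in B-like cells. Its ratios of -1.75 in Camp-mid and -1.28 in Camp-low neutrophils turned to 0.44 and 0.06 when cells with another class's marker were left out. Rpl37a was at 5341 and 4313 CPM in monocyte-like and 8552 and 6424 CPM in B-like cells. Rps29, the most abundant member over the class sums, was at 7419 and 5785 CPM in monocyte-like cells, and Rps21 was at 1779 and 1379 CPM. Rpl41, whose product is the smallest ribosomal protein, was the lowest in B-like cells by the bound of its interval, at 8403 and 6232 CPM, but was at 5539 and 5265 CPM in monocyte-like cells. In Camp-high neutrophils Rpl36 was at 381 and 237 CPM and Rps27l at 152 and 90.8 CPM.

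**Figure D3:**
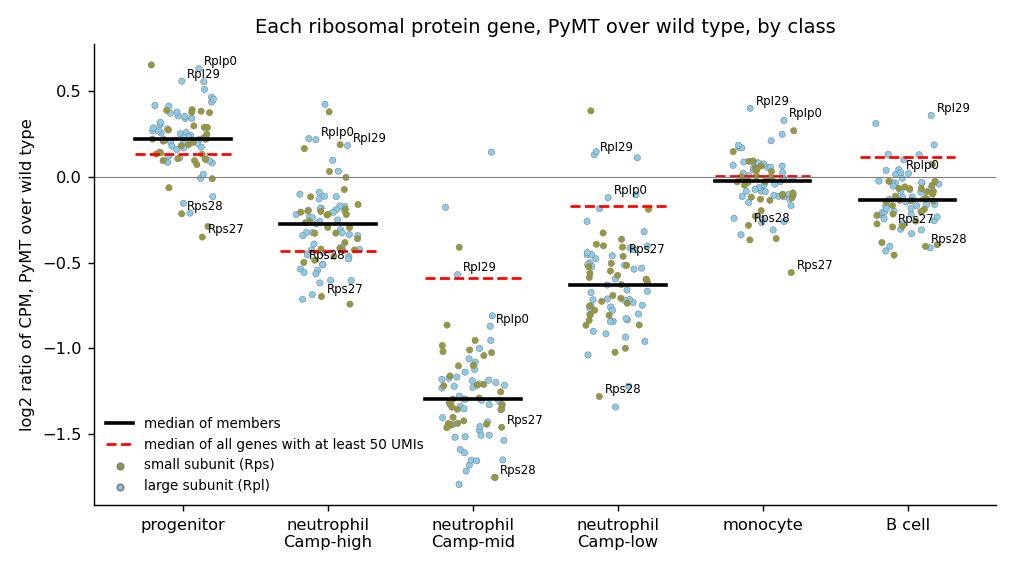
Log2 ratio of CPM in PyMT over wild type (y axis) for each ribosomal protein gene in each class (x axis), small subunit in olive and large subunit in light blue, with the median of members (black line) and of all genes with at least 50 UMIs (red dashed line); 1 library per condition. Rpl29 and Rplp0 lie in the upper part of each class and Rps28 in the lower part, while the Camp-mid median of members (-1.30) is far below that of all genes (-0.59).

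Longer members tended to have higher ratios, though the medians by length did not rise evenly in every class. The lengths are those of annotated transcripts, at 5130 bases for Rps15a and 3706 for Rps20. The transcript forms present in these cells were not examined. Over the members the Pearson correlation of log length with the PyMT over wild-type log2 ratio was 0.43 in monocyte-like cells (82 genes), 0.46 in B-like cells (81), 0.41 in progenitor-like cells (81) and 0.36 in Camp-high neutrophils (82). Over all genes it had the other sign, -0.18, -0.14, -0.21 and -0.21. The genes share the 2 libraries, so these are descriptions. In monocyte-like cells the 27 shortest members, from 345 to 667 bases, had a median ratio of -0.11, and the 28 longest, from 946 to 5130 bases, -0.02. In B-like cells the medians were -0.22 and -0.07. In Camp-high neutrophils they were -0.34 and -0.20. The 27 members of middle length had a median of 0.002 in monocyte-like cells, above that of the longest. Their medians were -0.12 in B-like cells and -0.33 in Camp-high neutrophils. Other genes as short as the short members had medians of 0.07 in monocyte-like and -0.12 in B-like cells. All genes outside the set had medians of 0.006 and 0.12. The part of library preparation in the difference by length was not tested.

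**Figure D4:**
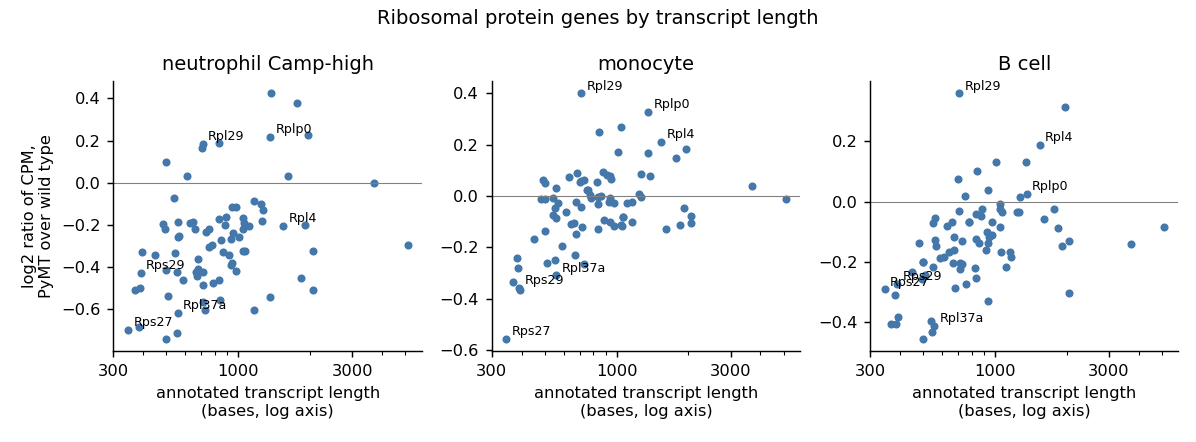
Log2 ratio of CPM in PyMT over wild type (y axis) against annotated transcript length in bases (x axis, log scale) for each ribosomal protein gene, in Camp-high neutrophils, monocyte-like cells and B-like cells; 1 library per condition. Many of the lowest points are short transcripts, of which Rps27 is the shortest, and Pearson's r is 0.36, 0.43 and 0.46.

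Some of the members' start sites carry a run of the TOP kind. RefSeq windows on GRCm38.p6 were found for 62 of the 83 members. A C followed by at least 4 pyrimidines at a listed start was present in 13 of them (20.97%), against 3.01% of 27025 genes. The match requires the listed start to fall on that C. A run just past the start, as in Rpl12 and Rpl18, was not counted, so members without a match may still have the motif. The following windows, of members named above for a ratio below or above the member median, run 5′ to 3′ along the gene, with 15 bases before the start and the first 15 of the transcript, and the capitals mark the unbroken run of C and T from the start.
Rps27: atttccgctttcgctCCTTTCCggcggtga
Rpl38: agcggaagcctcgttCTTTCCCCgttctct
Rps21: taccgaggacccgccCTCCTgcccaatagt
Rpl35a: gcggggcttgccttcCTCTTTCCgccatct
Rpl14: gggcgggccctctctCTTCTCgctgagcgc
Rps6: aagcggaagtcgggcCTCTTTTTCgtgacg
They lie at chr3:90213634-90213663 (minus strand), chr11:114668565-114668594 (plus), chr2:180257364-180257393 (plus), chr16:33056467-33056496 (plus), chr9:120571502-120571531 (plus) and chr4:86857353-86857382 (minus), in that order. Members with a ratio below the median (Rps27 in 5 of 6 classes, Rpl38, Rps21 and Rpl35a in all 6) and members above it (Rpl14 and Rps6) both begin with such a run. The 13 members with a match and the 49 without had median ratios of 0.10 and 0.22 in progenitor-like cells. The medians were -0.27 and -0.27 in Camp-high, -1.34 and -1.30 in Camp-mid and -0.72 and -0.61 in Camp-low neutrophils. They were -0.01 and -0.03 in monocyte-like and -0.17 and -0.13 in B-like cells. The letters CCGGAAG, a form of the ETS family binding motif, occurred on either strand in the longer RefSeq windows, mostly before the start, of 25 of 62 members (40.3%), against 9.93% of all genes. TATAAA occurred in 7 (11.3%), against 15.7%. Members with and without CCGGAAG had median PyMT over wild-type ratios of -0.03 and -0.03 in monocyte-like cells and -0.27 and -0.29 in Camp-high neutrophils. A match is only a run of letters in the window.

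The paralogues were used to different extents by the cell classes. Rps27l, a p53-responsive paralogue of Rps27, made up 7.21% (6.87 to 7.55) of the UMIs of the pair in wild-type and 10.2% (9.93 to 10.5) in PyMT monocyte-like cells. In B-like cells it made up 1.21% (1.05 to 1.39) and 1.08% (0.99 to 1.19). Progenitor-like cells had the largest share, 13.6% and 18.2%, and among neutrophils it went from 10.7% and 10.4% in Camp-high to 6.80% and 5.33% in Camp-low cells. B-like cells had the lowest share of all classes in both libraries. Rps27 itself was high there, and Rps27l was at 156 and 114 CPM in B-like and at 419 and 415 CPM in monocyte-like cells.

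Rpl36al, the copy of Rpl36a on chromosome 12, had the same contrast. It made up 53.9% and 52.0% of its pair in Camp-high neutrophils, 46.8% and 47.4% in monocyte-like cells, 37.7% and 37.3% in progenitor-like cells and 20.2% and 18.8% in B-like cells. The 2 genes are close copies, and reads that fit both may be lost or assigned to either. Rpl22l1, the paralogue of Rpl22, did not split this way: 39.8% and 36.4% in Camp-high neutrophils, 32.7% and 33.1% in monocyte-like cells, 41.4% and 45.4% in B-like cells. Rpl3l made up 1.78% and 3.43% of its pair in Camp-high and 5.19% and 9.10% in Camp-low neutrophils, but 0.47% and 0.44% in monocyte-like and 0.10% and 0.10% in B-like cells. Its wild-type Camp-low share rests on 4 UMIs (interval 1.43 to 12.8). Rpl7l1, a nucleolar protein related to Rpl7, stayed between 1.36% and 4.32% of its pair in all 12 sums.

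**Figure D5:**
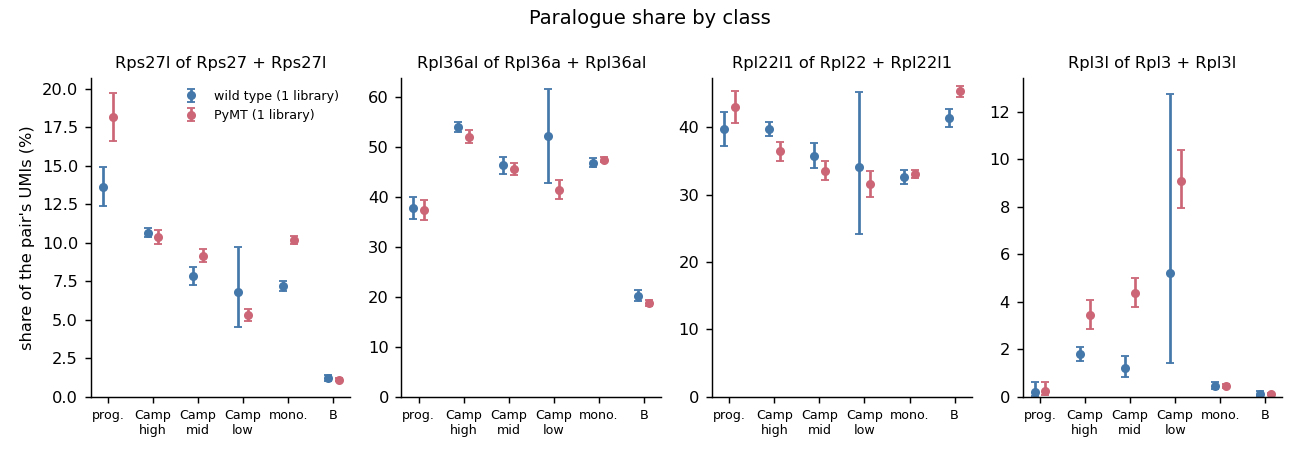
Share of a paralogue in the UMIs of its gene pair (y axis, %) for Rps27l, Rpl36al, Rpl22l1 and Rpl3l in each class (x axis: progenitor, Camp-high, Camp-mid, Camp-low, monocyte, B) of the wild-type (blue) and PyMT (red) library; bars are exact 95% intervals for counting error. Rps27l and Rpl36al are lowest in B-like cells (1.21% and 20.2% in the wild type), and Rpl3l is highest in Camp-low neutrophils.

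Among members with roles outside the ribosome, Rpl5 and Rpl11, which bind Mdm2 when ribosome assembly is disturbed, were compared in the monocyte-like class: Rpl5 was at 813 CPM in the control and 756 CPM in the PyMT pool, and Rpl11 at 2945 and 2879 CPM. Rps6, the substrate of the S6 kinases, was at 3407 and 3635 CPM there, and Rps19, whose loss impairs red cell production, at 4102 and 4257 CPM. None of these 4 differed by 1.5-fold in that class. In Camp-high neutrophils Rps19 was at 642 and 721 CPM and Rpl11 at 626 and 454 CPM.

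The other genes of the translation machinery did not all move with the members. Fau, which encodes a small subunit protein but is not matched by symbol, was at 7235 CPM in wild-type and 6189 CPM in PyMT monocyte-like cells. In Camp-high neutrophils the ribosome biogenesis genes had a median log2 ratio of -0.63, and 17 of 32 were at least 1.5-fold lower and 0 higher, against 39.8% and 3.36% of all genes. The nucleolar protein gene Npm1 was at 96.6 and 47.6 CPM. Of 74 mitochondrial ribosomal protein genes 1 was higher and 28 were lower (median -0.48), and of 48 genes with initiation factor symbols 1 and 11 (median -0.39). The latter list was taken by symbol, Eif and a digit without Eif6, so it also holds regulators such as Eif2ak1, Eif4ebp1 and Eif4ebp2. For both lists the share of lower genes was below the 39.8% of all genes. The biogenesis genes thus lay further below 0 than the members, whose median was -0.27, and than all genes. These Camp-high ratios include the 224 wild-type cells with 2 or more Csf1r and Ccr2 UMIs. With such cells left out, the member shares were 4.01% in the wild type and 4.15% in PyMT. In monocyte-like over Camp-high cells the biogenesis genes had median log2 ratios of 2.20 in the wild type and 3.06 in PyMT. The part of those cells in the biogenesis ratio was not tested. Of 15 biogenesis genes in progenitor-like cells 8 were higher and 0 were lower, against 16.1% and 7.98% of all genes. Their median ratio was 0.59, against 0.22 for the members. With cells carrying another class's marker left out, 14 cells remained in each library. The member share was then lower in PyMT, at 13.3% in the wild type and 11.2% in PyMT. The biogenesis ratio without such cells was not tested. Cycling markers summed to 506 CPM in wild-type and 719 CPM in PyMT progenitor-like cells, and to 253 and 157 CPM in Camp-high neutrophils. Cells with 2 or more UMIs of these markers were 95.7% and 82.4% of progenitor-like and 13.2% and 16.8% of Camp-high cells. The share of such cells thus moved the other way from the sum in both classes. A fixed count of 2 UMIs depends on depth, and the median Camp-high cell had 5739.5 UMIs in the wild type and 11522 in PyMT. The part of cycling cells in the biogenesis ratios was not tested. In monocyte-like cells 2 of 76 mitochondrial ribosomal protein genes and 2 of 38 biogenesis genes were higher and 0 lower, against 7.71% and 9.0% of all genes.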

How the data were processed

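Spleen cells sorted on CD11b and Gr1 were run as 1 droplet library per condition, and the submitters' processing notes name Cell Ranger 2.1.0 and mm10. The cell calling and annotation are not given in the sources used here. Each deposited matrix holds raw UMI counts per gene and cell, made by the authors. Samples were grouped by their titles. Counts were summed per library and class with Python 3.11.15, numpy 2.4.6, scipy 1.17.1 and pandas 2.3.3. CPM is relative to all UMIs of a class, and with 3′ tags it needs no length correction. Ratios have exact 95% intervals from the binomial distribution. Genes counted against a fold had at least 50 UMIs in the 2 sums together. Most members are far deeper than that floor, so their counts and the all-gene shares are not at like depth. With 1 library per condition there was no test. No cell was removed and no doublet caller was run; alternatives left out cells with other classes' markers or the most UMIs, and thinned cells to 1000 UMIs. Scaling alternatives used edgeR 4.0.16 and median-of-ratios factors. The code for ratios and their intervals was run on simulated counts for PyMT over wild type in each class. The other steps were not tested in this way.

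Members named are the 6 most abundant, the 3 highest and 3 lowest in each class by the interval bound nearest 0 (at least 100 UMIs), the 3 at each end for Camp-low over Camp-high, paralogue pairs, members with a named role, and in other translation lists up to 3 per class. Members that departed from the median in all 6 classes were named after their values were seen. Members and lists were chosen with earlier results of these data known. Positions are from GENCODE M21 and start windows from RefSeq, both GRCm38. Gene models of near-identical copies, of which the genome has many for these genes, may take or share reads, which was not tested; transcripts of overlapping genes on the other strand were not examined. A result on 1 further gene is not reported here.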

Additional observations from a re-analysis of the deposited data

Results flagged for a closer look

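These results stand out because an effect ran in opposite directions in 2 groups; none of the differences was tested, since each condition is 1 library. The log2 ratio of the summed ribosomal protein share, Camp-low over Camp-high, was 0.23 in the wild type and -0.03 in PyMT, a difference of 0.26. The PyMT over wild-type ratio was above 0 in progenitor-like cells and below 0 in the other 5 classes. With cells carrying another class's marker left out it was -0.25 in progenitor-like cells and 0.12 and 0.16 in Camp-high and Camp-low neutrophils, so these directions did not hold. With all cells of the class, the progenitor-like ratio exceeded that of Camp-high neutrophils by 0.473, that of Camp-mid neutrophils by 1.43 and that of Camp-low neutrophils by 0.733. It exceeded that of monocyte-like cells by 0.253 and that of B-like cells by 0.331.

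Cells that met no class rule were used in no comparison. They had 15.8% of their UMIs on ribosomal protein genes in the wild type (600 cells) and 16.1% in PyMT (978 cells). Within them, cells with at least 10% on S100a8 and S100a9 and 2 or more Cd79a and Cd79b UMIs were at 12.96% and 10.2%, and cells with under 5% and too few marker UMIs were at 35.2% and 30.1%.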

How the results depend on the processing

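With 1 pool of mice per condition and no replicate, depth limits mainly the Camp-low wild-type sum (12989 ribosomal protein UMIs, 55 cells) and the progenitor-like sums. The values below are log2 ratios that lay outside the counting interval of the reported value. They are given for summed shares of PyMT over wild type in the order progenitor-like, Camp-high, Camp-mid, Camp-low, monocyte-like and B-like, then for medians of members where these moved, then for Camp-low over Camp-high in the wild type and in PyMT. The cause of each shift was not tested. Trimmed mean of M-values scaling gave 0.065, 0.14, -0.66, -0.40, -0.069 and -0.25, medians of 0.093, 0.14, -0.72 and -0.25 (progenitor-like, Camp-high, Camp-mid, B-like), and 0.080 and -0.12. Median-of-ratios scaling gave 0.058, 0.15, -0.65, -0.43, -0.066 and -0.25, medians of 0.086, 0.16, -0.71 and -0.25 in the same classes, and 0.10 and -0.093. A total without the class rule genes gave 0.093, -0.24, -1.02, -0.59, -0.054 and -0.13, medians of 0.12, -0.23 and -1.08 (progenitor-like, Camp-high, Camp-mid), and 0.11 and -0.24. Equal weight per cell gave 0.22, -0.061, -0.94, -0.25 and, in B-like cells, -0.16, medians of -0.014, -0.99 and -0.31 (neutrophils), and 0.018 and -0.17. Thinning to 1000 UMIs gave 0.22, -0.071, -0.94, -0.25, -0.068 and -0.16, medians of -0.054, -0.995 and -0.28 (neutrophils), and 0.018 and -0.17. Cells with 3000 to 8000 UMIs gave 0.091, -0.67, -0.68, -0.032 and -0.12 from Camp-high on, medians of 0.10 and -0.72 (Camp-high, Camp-mid), and 0.52 and -0.25. Cells with at most 5% mitochondrial UMIs gave -0.13 in B-like cells. Leaving out cells with a UMI of another class marker gave -0.25, 0.12, -0.020, 0.16, -0.046 and -0.16, medians of -0.26, 0.15, 0.032 and 0.30 (progenitor-like and neutrophils), and -0.55 and -0.50; single members that changed sign were Rps2 in progenitor-like cells (-0.024), Rps28 in Camp-mid (0.44) and Camp-low (0.056) and Rpl36al in Camp-low neutrophils (0.60). Leaving out the 5% of cells with the most UMIs gave 0.27, -0.13, -1.26, -0.47, -0.067 and -0.15, medians of -0.092 and -1.36 (Camp-high, Camp-mid), and 0.029 and -0.31. Leaving out cycling cells, added after seeing the data, gave -0.14, -1.30 and -0.48 in neutrophils and -0.055 in monocyte-like cells, medians of -0.10 and -1.39, and 0.38 and 0.034. Leaving out neutrophil-like cells with Csf1r and Ccr2 UMIs, also added, gave 0.049, -0.43 and 0.28, medians of 0.078, -0.43 and 0.45, and changed the sign of Rps28 (0.45), Rpl36al (0.66) and Rpl5 (0.17) in Camp-low neutrophils. Stricter S100a8 and S100a9 borders gave -0.26, -0.87, -0.19, -0.053 and -0.13 from Camp-high on. Camp borders of 5% and 0.5% gave 0.54 and 0.00088. Member floors of 10 and 200 UMIs moved no median beyond its interval. The monocyte-like and B-like ratios kept their direction in all of these settings, and the progenitor-like ratio changed it in 1. Progenitor-like cells gave no value for 3000 to 8000 UMIs or without cycling cells, since under 10 cells remained. No paired analysis was possible because each condition has 1 library.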
